A study of Mus musculus with 7 samples.

Results

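Neurturin (Nrtn) and the GDNF family receptor genes were followed in hippocampal synaptoneurosomes of mice given AM6545 or vehicle. The set holds 6 of the 22248 genes in the deposited gene table, matched to the symbols Nrtn, Gdnf, Gfra1, Gfra2, Gfra4 and Ret by Ensembl identifier. Nrtn was chosen because its level was low in every AM6545 library, so its difference between the treatments is given as a description with no test. The other 5 were chosen as ligand and receptor genes of the same family. Synaptoneurosomes are nerve endings pinched off with attached postsynaptic parts during fractionation of brain tissue, and AM6545 is a cannabinoid CB1 receptor antagonist that enters the brain poorly. All mice were wild-type C57Bl/6J females, and the groups were AM6545 given sub-chronically (4 libraries, replicates B, D, E and F) and vehicle (3 libraries, replicates B, D and E). Age, dose, duration and the number of mice in each library are not given in the sources used here. The labels do not say that replicates came from separate mice, so p-values measure the spread between these libraries, which may be technical.

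GDNF family ligands are secreted growth factors of the TGF-beta superfamily, known for keeping dopaminergic, sympathetic, parasympathetic, motor and sensory neurons alive. Each ligand binds a preferred co-receptor tethered to the cell surface by a GPI anchor, and the pair then activates RET, a transmembrane receptor tyrosine kinase. Neurturin prefers GFRα2, GDNF prefers GFRα1, artemin prefers GFRα3 and persephin prefers GFRα4. Activated RET recruits adaptor proteins that start the RAS-MAPK and PI3K-AKT cascades.

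Base composition and splicing entered the results, so 2 pairs of sequences are shown, taken from GENCODE release M21 transcripts. The first pair is the middle 120 bases of the coding sequence of Nrtn and of Gfra1, with every G and C in capitals. Positions count from the start codon. The Nrtn stretch covers bases 233 to 352 of 585, the Gfra1 stretch bases 643 to 762 of 1404.
Nrtn: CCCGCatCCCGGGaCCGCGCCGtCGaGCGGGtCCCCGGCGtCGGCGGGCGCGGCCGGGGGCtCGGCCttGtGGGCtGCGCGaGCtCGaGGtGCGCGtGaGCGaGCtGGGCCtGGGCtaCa
Gfra1: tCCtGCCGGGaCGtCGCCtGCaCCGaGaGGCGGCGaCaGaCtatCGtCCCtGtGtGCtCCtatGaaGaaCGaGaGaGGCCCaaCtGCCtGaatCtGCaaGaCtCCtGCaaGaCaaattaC
G and C made up 96 of the 120 bases in Nrtn (80.0%) and 69 of the 120 in Gfra1 (57.5%).

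The second pair shows an intron of Gfra4 on chr2:131041342-131041394, minus strand, GRCm38. The retained-intron transcript ENSMUST00000156509 keeps its 53 bases, in capitals, and the protein-coding transcript ENSMUST00000110240 joins the same exons without it. The intron begins with GT and ends with AG, and 84.9% of its bases are G or C.
ENSMUST00000156509: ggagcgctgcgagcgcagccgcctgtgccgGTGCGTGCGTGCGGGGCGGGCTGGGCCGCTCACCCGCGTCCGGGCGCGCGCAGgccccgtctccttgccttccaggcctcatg
ENSMUST00000110240: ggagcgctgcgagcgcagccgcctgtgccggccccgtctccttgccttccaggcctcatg

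Library totals ran from 19174649 to 25894733 estimated counts. The edgeR quasi-likelihood fit covered 14654 genes, of which 1 (0.00682%) passed an adjusted p of 0.05 (Benjamini-Hochberg), and it is no member of the set. At an unadjusted p under 0.05, 8.7% of genes were lower and 5.86% higher in AM6545. The libraries also differed by base composition. Across 14633 genes, the slope of log2 level per 10 percentage points of GC content lay between -0.125 and -0.028 in the AM6545 libraries and between 0.052 and 0.139 in the vehicle libraries, without overlap. Markers of neurons and of glia were both present. Summed levels in CPM (counts scaled to library size) were 3719 to 4009 in AM6545 and 4047 to 4740 in vehicle for 6 pyramidal and granule neuron markers, without overlap, with 1 lower at an unadjusted p under 0.05. They were 17170 to 20270 in AM6545 and 16870 to 23100 in vehicle for 7 oligodendrocyte markers, which overlapped. For 9 microglia markers the sums were 991 to 1081 CPM in AM6545 and 1034 to 1311 CPM in vehicle, with 5 lower at an unadjusted p under 0.05. For 8 choroid plexus and ependymal markers they were 420 to 1951 and 1562 to 2759 CPM, with 0 at that p, and for 7 endothelial and mural markers 42.5 to 54.5 and 34.99 to 46.6 CPM, also with 0. For 4 oligodendrocyte precursor markers they were 248 to 262 and 277 to 307 CPM, without overlap, with 2 lower at that p. Sums overlapped for 8 interneuron markers (698.2 to 783.5 and 723.7 to 814.3 CPM) and 8 astrocyte markers (4084 to 5109 and 4253 to 5513 CPM). At that p, 2 of the interneuron and 1 of the astrocyte markers were lower and 0 higher, where 8.7% of all genes were lower. Of the 6 pyramidal and granule neuron markers, 0 were without overlap by themselves. Their median log2 fold change was -0.07, and -0.04 after a correction for GC content and length. For the precursor markers it was -0.13 and -0.02, and for the microglia markers -0.22 and -0.14. No gene of these lists was at 0 counts in all libraries, and the part of other cell types in the results below was not tested. In such bulk libraries fewer cells or endings of a type and less RNA in each cannot be told apart.

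Among the ligands, Nrtn was the one with more than trace counts. Nrtn (ENSMUSG00000039481.6) lies on chr17:56751325-56757530, minus strand, in GRCm38, has 3 exons in its 1 annotated transcript and encodes 195 amino acids. Its estimated counts in AM6545 replicates B, D, E and F were 53.0, 77.6, 56.6 and 58.9. In vehicle replicates B, D and E they were 130.7, 131.1 and 105.2. The 95% exact Poisson intervals, which cover counting error only, ran from 39.7 to 97.3 counts over the AM6545 libraries and from 85.9 to 155 over the vehicle libraries. After scaling to effective library size by TMM, Nrtn was at 2.29, 2.98, 2.68 and 2.26 CPM in AM6545 replicates B, D, E and F. It was at 5.27, 5.28 and 5.68 CPM in vehicle replicates B, D and E. Every AM6545 library lay below every vehicle library, and the gap between the groups was wider than the range within either. The means were 2.55 ± 0.340 CPM (SD, n = 4) and 5.41 ± 0.234 CPM (SD, n = 3), a log2 fold change of -1.08 (SE 0.16), or 0.473-fold. Groups without overlap and lower in AM6545 made up 7.19% of all genes tested. Since Nrtn was chosen on this contrast, nothing is read from that share, from the gap or from the rank given next. Of the 14654 genes, 23 had a log2 fold change at or below that of Nrtn, and in 12 of those the groups did not overlap.

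**Figure D1:**
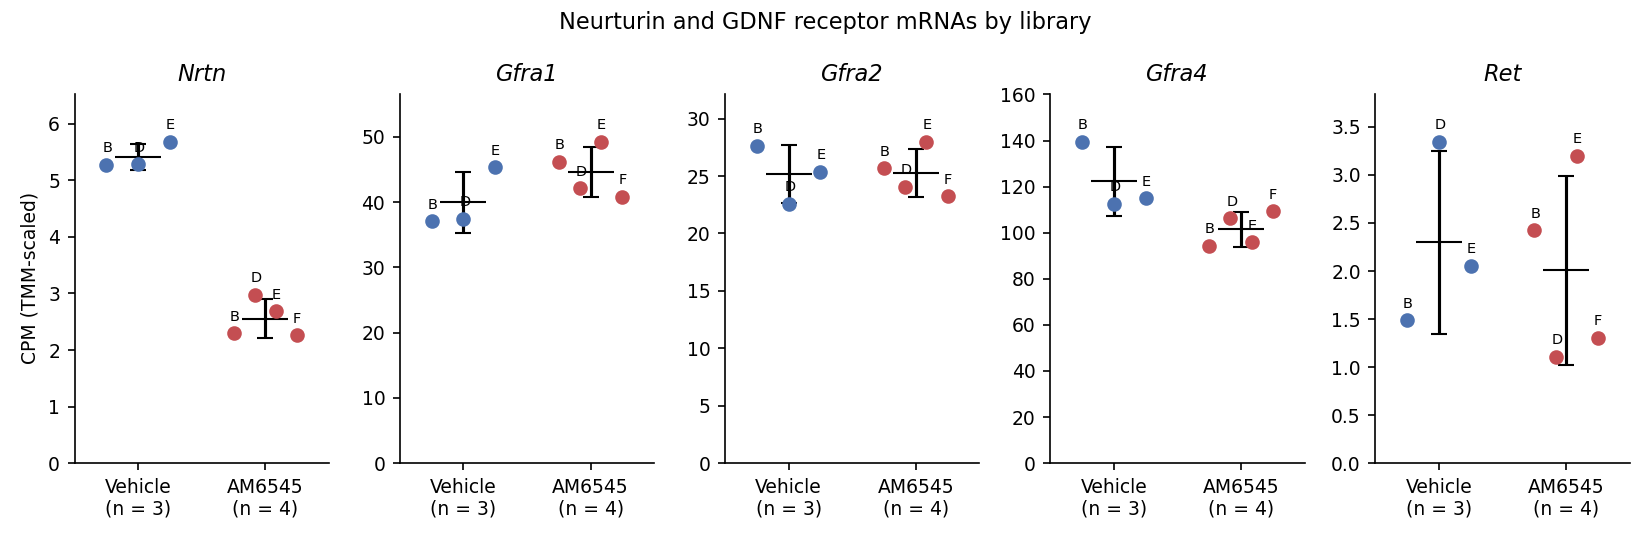
Level of the 5 members with enough counts to be tested, in TMM-scaled CPM (vertical axis, from 0), by group. Points are libraries with their replicate letter, and bars are the mean ± SD (vehicle n = 3, AM6545 n = 4). The 4 AM6545 libraries of Nrtn sit between 2.26 and 2.98 CPM, below the vehicle libraries at 5.27 to 5.68 CPM, while Gfra1, Gfra2 and Ret overlap between the groups.

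Nrtn also had the highest GC content of the 14633 genes tested for which it was known, at 72.8% of its 1023-base transcript. Of the 62 genes with at least 65% GC, 59 (95.2%) were lower in AM6545, with a median log2 fold change of -0.33, and 2 of the 62, Nrtn included, were at or below -1.08. When the dependence of level on GC content and transcript length was removed within every library, the log2 fold change of Nrtn was -0.44. The corrected log2 CPM values of Nrtn were 1.62, 1.81, 1.90 and 1.37 in AM6545 replicates B, D, E and F and 1.64, 2.15 and 2.44 in vehicle replicates B, D and E. After the correction vehicle replicate B lay within the range of the AM6545 libraries, so the groups overlapped. Only 4 genes, Nrtn included, lay within 2.5 points of its GC content, so the trend at that end rests on few genes. How much of the difference goes with base composition was not tested beyond this correction.

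**Figure D2:**
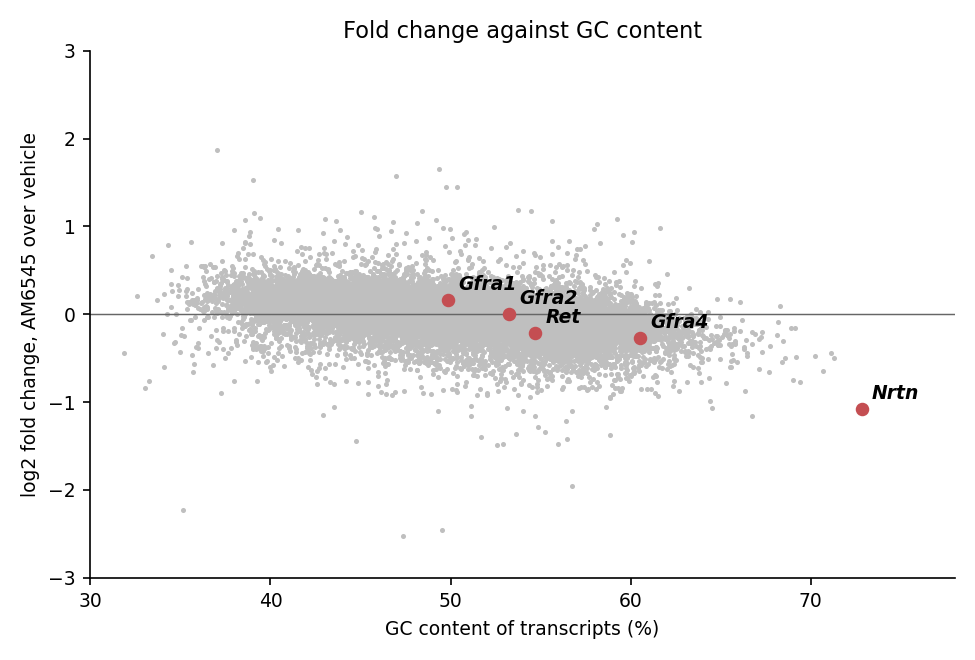
Log2 fold change of AM6545 over vehicle (vertical axis) against GC content of transcripts in percent (horizontal axis) for 14633 genes in grey, with the members in red. Values of 4 genes outside -3 to 3 are not shown. Nrtn stands at the right edge at 72.8% GC and -1.08, and genes of at least 65% GC lie mostly below 0.

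The other ligands were near the limit of detection. Gdnf (ENSMUSG00000022144.5, chr15:7810846-7837575, plus strand) had 1, 1, 0 and 1 counts in AM6545 replicates B, D, E and F and 0, 2 and 2 counts in vehicle replicates B, D and E. No library exceeded the 3 counts that a count of 0 allows, so Gdnf was not tested and no difference was detectable at this depth. Pspn, which encodes persephin, had 15.0 counts in all 7 libraries together and Artn, which encodes artemin, had 44.7. Gdf15, a more distant relative that acts on the hindbrain receptor GFRAL, had 52.1 counts. All of these fell below the filter on low counts.

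The preferred neurturin co-receptor overlapped between the groups. Gfra2 (ENSMUSG00000022103.11, chr14:70890120-70979838, plus strand) was at 25.7, 24.1, 28.0 and 23.3 CPM in AM6545 replicates B, D, E and F and at 27.6, 22.6 and 25.4 CPM in vehicle replicates B, D and E. High and low libraries occurred on both sides. Its log2 fold change was 0.00 (SE 0.11; edgeR, adjusted p 0.992) and an interval of 2 SE reached from -0.22 to 0.22.

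The preferred GDNF co-receptor was the second most abundant of the receptors. Gfra1 (ENSMUSG00000025089.16, chr19:58235604-58455909, minus strand) was at 46.2, 42.1, 49.2 and 40.8 CPM in AM6545 replicates B, D, E and F and at 37.1, 37.5 and 45.4 CPM in vehicle replicates B, D and E. Vehicle replicate E lay within the AM6545 range and the other vehicle libraries lay below it. The log2 fold change was 0.16 (SE 0.11; edgeR, adjusted p 0.517), with an interval of 2 SE from -0.06 to 0.38. The antisense gene Gm16277 overlaps the last exon of Gfra1 by 416 bases in GENCODE M21. It has no row of its own in the gene table used here, and the use of strand in counting is not given in the sources used here, so the level of Gfra1 is uncertain.

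Gfra4, which encodes the persephin co-receptor, had the most counts of the set. Gfra4 (ENSMUSG00000027316.16, chr2:131039632-131043088, minus strand) was at 94.3, 106, 95.9 and 109 CPM in AM6545 replicates B, D, E and F. It was at 139, 113 and 115 CPM in vehicle replicates B, D and E. All AM6545 libraries were below all vehicle libraries, with a narrow gap and with vehicle replicate B far above the rest. The means were 101 ± 7.49 CPM (SD, n = 4) and 122 ± 14.9 CPM (SD, n = 3), a log2 fold change of -0.27 (SE 0.11; edgeR, unadjusted p 0.0263, adjusted p 0.288). It did not pass the adjusted threshold. Without vehicle replicate B the log2 fold change was -0.16 (edgeR, adjusted p 0.819). Its transcripts held 60.5% GC on average, more than in 96.2% of genes, and with the correction for GC content and length its log2 fold change was -0.01.

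Ret encodes the kinase that all GFRα co-receptors share, and it was scarce. Ret (ENSMUSG00000030110.14, chr6:118151745-118197718, minus strand) was at 2.42, 1.11, 3.20 and 1.30 CPM in AM6545 replicates B, D, E and F and at 1.49, 3.35 and 2.06 CPM in vehicle replicates B, D and E. High and low libraries occurred in both groups. The log2 fold change was -0.22 (SE 0.38; edgeR, adjusted p 0.81), and the interval of 2 SE from -0.98 to 0.55 was the widest of the members. Without vehicle replicate D the value was 0.18. Of the 4 receptors tested, Gfra1, Gfra2, Gfra4 and Ret, 0 passed an adjusted p of 0.05 by edgeR, 1 (Gfra4) had an unadjusted p under 0.05, and for the same 1 the groups did not overlap. Over all genes tested 14.6% had such an unadjusted p and 13.8% did not overlap in either direction. By limma-voom 0 of the 4 passed, and by DESeq2 0 of the 3 that received an adjusted p, which leaves out Ret. Of the receptors below the filter on low counts, Gfra3, the artemin co-receptor gene, had 7.0 counts in all libraries together, and Gfral had 0 in each, which allows up to 3 counts for each library.

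**Figure D3:**
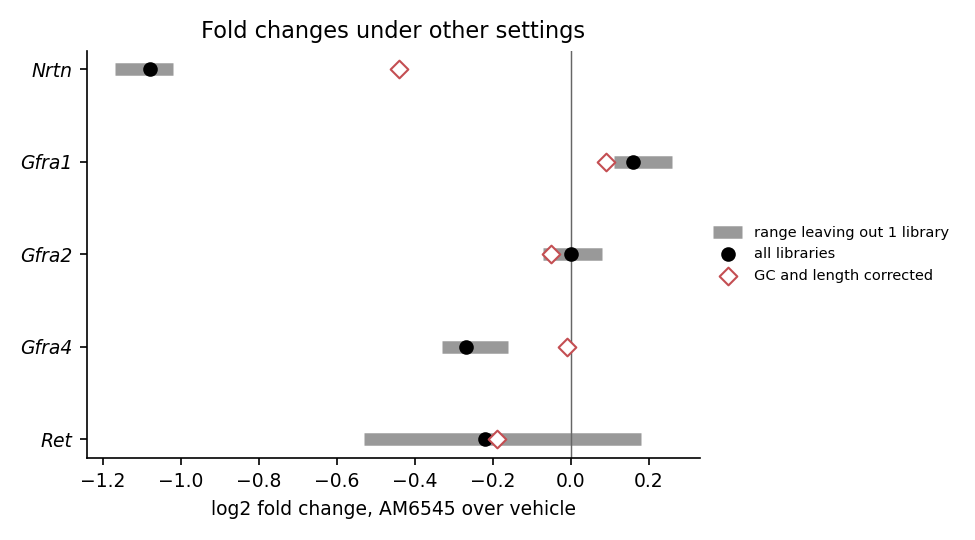
Log2 fold change of AM6545 over vehicle (horizontal axis) for each tested member, with all libraries (black), with each library left out in turn (grey range) and with the correction for GC content and length (open diamonds). Nrtn stays between -1.17 and -1.02 when a library is left out and moves to -0.44 with the correction, and Gfra4 moves to -0.01. Nrtn was chosen for its low level in every AM6545 library, so its narrow grey range is a description only.

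Levels were compared between genes in TPM, a measure per transcript length, recomputed from the deposited transcript counts and annotated lengths. Gfra4 was highest at 153 ± 11.9 TPM in AM6545 (SD, n = 4) and 170 ± 8.18 TPM in vehicle (SD, n = 3). Gfra1 followed at 20.4 ± 1.98 and 16.9 ± 2.66 TPM and Gfra2 at 14.7 ± 1.16 and 14.6 ± 0.979 TPM. These 2 receptors overlapped in vehicle, from 14.1 to 19.5 TPM for Gfra1 and from 13.6 to 15.5 TPM for Gfra2, and did not overlap in AM6545, where Gfra1 was at 18.6 to 22.9 and Gfra2 at 13.8 to 16.4 TPM. Within libraries, the ratio of Gfra1 to Gfra2 was 1.431, 1.342, 1.394 and 1.352 in AM6545 replicates B, D, E and F. It was 0.910, 1.167 and 1.433 in vehicle replicates B, D and E, so by this ratio the groups overlapped. Nrtn came next at 4.90 ± 0.675 and 9.62 ± 0.927 TPM, below Gfra2 in every library. Ret was at 0.833 ± 0.415 and 0.875 ± 0.416 TPM, below Nrtn in every library. Gdnf was last, at no more than 0.0541 TPM in any library. The ratio of Gfra2 to Nrtn in TPM was 3.39, 2.47, 3.14 and 3.17 in AM6545 replicates B, D, E and F and 1.82, 1.44 and 1.33 in vehicle replicates B, D and E, a description that carries the choice of Nrtn with it. These TPM values and ratios are not corrected for GC content and length, and with that correction the groups overlapped for Nrtn.

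Most of the Gfra4 signal was assigned to transcripts that are not annotated as coding for the receptor. The 2 retained-intron transcripts, ENSMUST00000136569 (1791 bases) and ENSMUST00000156509 (1125 bases), took 86.9%, 86.6%, 82.5% and 79.6% of Gfra4 counts in AM6545 replicates B, D, E and F. They took 84.1%, 88.2% and 88.2% in vehicle replicates B, D and E, so the share was high in each library and the groups overlapped. Over all libraries it was 85.1%. Of 6493 genes with an annotated retained-intron transcript and at least 100 counts in each library, 6 had a larger share, and the median was 0.740%. The coding transcript ENSMUST00000110240 (1426 bases) took 15.3% ± 3.65 (SD, n = 4) and 12.4% ± 2.36 (SD, n = 3). Both retained-intron transcripts keep intron 2 of the 5 introns of that coding transcript, the 53-base intron printed above, and the 1791-base one keeps introns 4 and 5 as well.

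**Figure D4:**
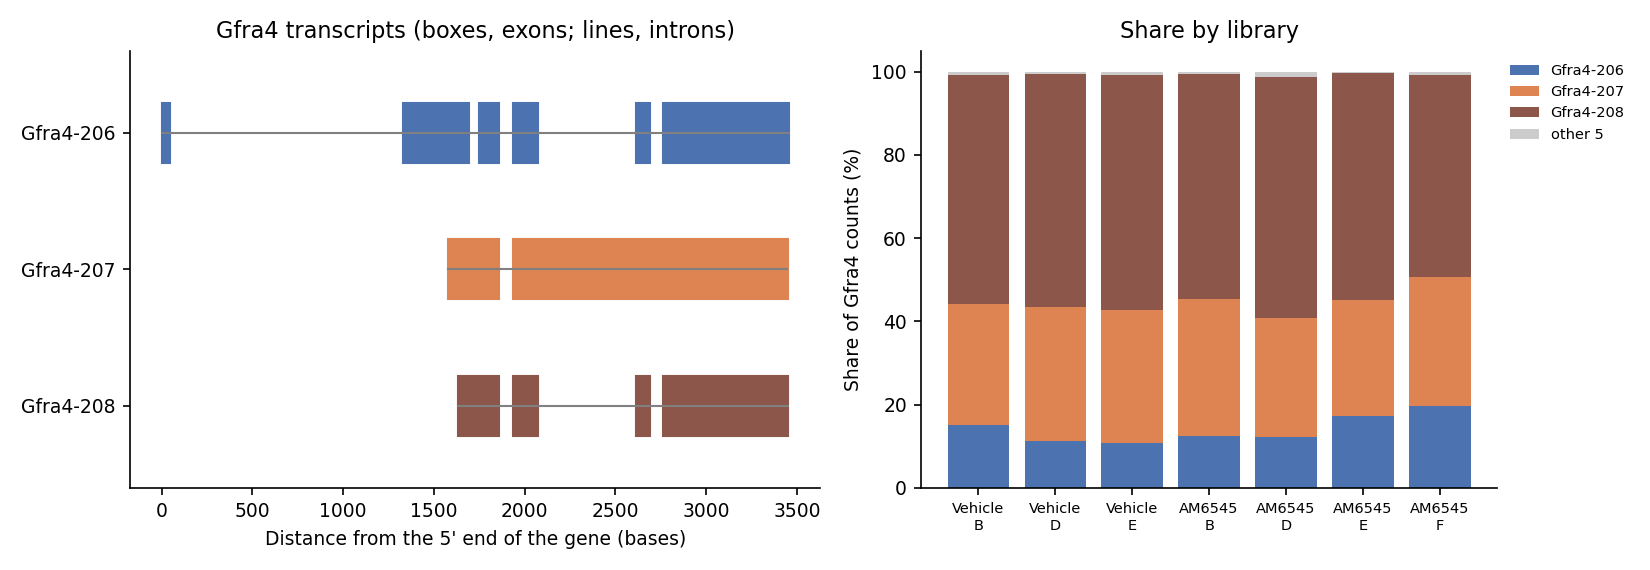
Left, exons (boxes) and introns (lines) of 3 Gfra4 transcripts by distance in bases from the 5' end of the gene, the 1426-base coding one in blue and the retained-intron ones of 1791 bases in orange and 1125 bases in brown. Right, the share of Gfra4 counts in percent by library and transcript, with the other 5 transcripts in grey. The retained-intron transcripts hold 79.6% to 88.2% of counts in each library.

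The 3 main Gfra4 transcripts were also tested one by one. The 1125-base retained-intron one averaged 54.6 ± 4.88 CPM with AM6545 (SD, n = 4) against 68.2 ± 7.71 CPM with vehicle (SD, n = 3), a log2 fold change of -0.32 (SE 0.11; edgeR over 33962 transcripts, adjusted p 0.559). The 1791-base retained-intron one averaged 30.7 ± 2.88 and 37.8 ± 2.41 CPM, with -0.30 (SE 0.10; edgeR, adjusted p 0.559). For both, the groups did not overlap, as for 5.59% of all transcripts in that direction and 10.8% in either. For both the unadjusted p was under 0.05, as for 4.5% of transcripts in that direction and 8.39% in either. The 1426-base coding transcript averaged 15.7 ± 4.32 and 15.4 ± 4.97 CPM, with 0.02 (edgeR, adjusted p 0.990) and a wider SE of 0.28. Of the 3, 0 passed an adjusted p of 0.05, as 0.0177% of all transcripts did, and whether they differ from each other was not tested. Transcript values here and below are not corrected for GC content and length. With that correction the log2 fold change of the Gfra4 gene was -0.01. Its corrected log2 CPM overlapped, from 6.66 to 6.81 in AM6545 and from 6.76 to 6.79 in vehicle. Of the bases of the 1125-base transcript, 95.3% are also in the coding one, so the division of reads between them rests on few bases of its own, and the recomputed TPM of Gfra4 rests on the same division.

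Gfra1 and Gfra2 counts were mostly on 1 transcript each. The 4641-base ENSMUST00000026076 took 87.0% ± 4.54 of Gfra1 counts in AM6545 (SD, n = 4) and 82.2% ± 2.96 in vehicle (SD, n = 3), and ENSMUST00000129100, which encodes 463 instead of 468 amino acids, took most of the rest. The longer form averaged 38.8 ± 1.90 against 32.8 ± 3.72 CPM without overlap, as for 5.2% of transcripts in that direction (3.89% were higher at an unadjusted p under 0.05), with a log2 fold change of 0.24 (SE 0.10; edgeR, unadjusted p 0.0435, adjusted p 0.582). For Gfra2 the 3472-base ENSMUST00000022699 took 98.0% ± 0.990 and 92.2% ± 6.23 of counts. The 1480-base ENSMUST00000227633 had 77.0 and 34.2 counts in vehicle replicates B and D, against 0 to 14.8 in the other 5 libraries (edgeR, adjusted p 0.642). Ret was divided between ENSMUST00000032201, which encodes 1115 amino acids, and ENSMUST00000088790, which encodes 1073, the lengths of the RET51 and RET9 forms, which differ in the tail that binds adaptor proteins. The longer form took 32.96%, 38.3%, 29.9% and 23.4% of Ret counts in AM6545 replicates B, D, E and F and 44.7%, 50.7% and 33.4% in vehicle replicates B, D and E. These shares overlap and rest on 7.9 to 42.3 counts of that form for each library.

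Genes that act around the receptors were described from lists, of which 0 members passed an adjusted p of 0.05 by edgeR. Of the alternative GDNF receptors, Ncam1, a neural adhesion molecule that can work with GFRα1, had a log2 fold change of -0.02 (adjusted p 0.937) and Sdc3, a heparan sulfate proteoglycan, had 0.02 (adjusted p 0.940). With the GC and length correction they had -0.05 and 0.12. The value of Ncam1 changed sign between scalings, from -0.03 to 0.02. The 4 proprotein convertases, which cleave growth factor precursors, had a median of 0.14 with 4 of 4 above 0 and 0 at an unadjusted p under 0.05. Over all genes tested 48.6% were below 0. Pcsk7 averaged 14.1 ± 1.11 CPM with AM6545 (SD, n = 4) against 12.1 ± 1.24 CPM with vehicle (SD, n = 3), with a log2 fold change of 0.22 (edgeR, adjusted p 0.410). Its groups did not overlap, as for 6.63% of all genes tested in that direction. The log2 fold changes of Pcsk5 and Furin were 0.16 and 0.12. With the correction the values were 0.22 for Pcsk7, 0.13 for Pcsk5 and 0.21 for Furin. The 5 sorting receptors and LRIG proteins had a median of -0.14. The sorting receptor gene Sorl1 was at 218 ± 9.09 and 252 ± 20.4 CPM without overlap (log2 fold change -0.21; edgeR, unadjusted p 0.0411, adjusted p 0.323), and -0.03 with the GC and length correction. Over all genes tested 7.19% were lower without overlap and 8.7% were lower at an unadjusted p under 0.05. Lrig1, which encodes a membrane protein that restrains receptor tyrosine kinases, and Lrig2 had 0.24 and -0.14, and 0.28 and -0.18 with the correction. The median over all 14654 genes was 0.008.

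Among 30 RET adaptor and proximal signalling genes, 22 had log2 fold changes above 0 and 8 below, with a median of 0.09, which was also 0.09 after the GC and length correction. Over all genes tested 48.6% were below 0. At an unadjusted p under 0.05, 3 of the 30 were higher and 1 lower, where 5.86% of all genes tested were higher and 8.7% lower. The smallest p in the list was that of Crk, an SH2 and SH3 adaptor. Crk was at 133, 141, 152 and 141 CPM in AM6545 replicates B, D, E and F and at 92.6, 128 and 121 CPM in vehicle replicates B, D and E. Its log2 fold change was 0.32 (SE 0.12; edgeR, adjusted p 0.265), and 0.14 with the correction. Frs2, a docking protein for activated RET, averaged 21.9 ± 1.04 (SD, n = 4) against 18.6 ± 1.11 CPM (SD, n = 3), with 0.23 (SE 0.10; edgeR, adjusted p 0.318) and 0.18 with the correction. The PI3-kinase subunit gene Pik3cb had 0.28 (adjusted p 0.306), the ubiquitin ligase gene Cblb 0.26 (adjusted p 0.366) and the RAS exchange factor gene Sos1 0.11 (adjusted p 0.601). With the correction these were 0.21, 0.26 and 0.11. For Crk, Frs2, Pik3cb, Cblb and Sos1 all AM6545 libraries lay above all vehicle libraries, 5 of 30 genes where 6.63% of all genes tested did so. Pdlim7, whose protein Enigma binds RET, had -0.27 (adjusted p 0.2998) and 0.05 with the correction.

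In the RAS-MAPK and AKT cascade 8 of 13 genes had values above 0 and 5 below, with a median of 0.07. Hras, one of the RAS GTPase genes, had a log2 fold change of -0.32 (SE 0.12; edgeR, adjusted p 0.269) with overlapping groups, and -0.14 with the correction. The MEK gene Map2k2 had -0.20 (adjusted p 0.360) without overlap, and 0.02 with the correction. In this list 1 of 13 genes was lower without overlap and 1 was higher. Over all genes tested 7.19% were lower without overlap and 6.63% were higher. Among 10 ERK feedback and ETS response genes, 6 were above 0 and 4 below, with a median of 0.11. Spred1, an inhibitor of RAS signalling, averaged 65.9 ± 4.68 (SD, n = 4) against 56.1 ± 2.05 CPM (SD, n = 3) without overlap (log2 fold change 0.23; edgeR, unadjusted p 0.0321, adjusted p 0.308), and 0.13 with the correction. It was the 1 gene of these 10 without overlap and the 1 at an unadjusted p under 0.05. Over all genes tested 6.63% were higher without overlap and 5.86% were higher at that p. The ETS factor gene Etv5 had 0.19 (adjusted p 0.430) and the feedback inhibitor gene Spry2 had -0.43 (adjusted p 0.469), both with overlap, and 0.13 and -0.53 with the correction. Of 6 other neurotrophic factor genes 5 were tested, with 2 above 0, 3 below, a median of -0.11 and 0 at an unadjusted p under 0.05. In that list Manf, an endoplasmic reticulum stress protein with neurotrophic action, had -0.36 (adjusted p 0.346) and Bdnf, a neurotrophin gene, -0.11 (adjusted p 0.642). With the correction Manf had -0.31 and Bdnf -0.33.

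**Figure D5:**
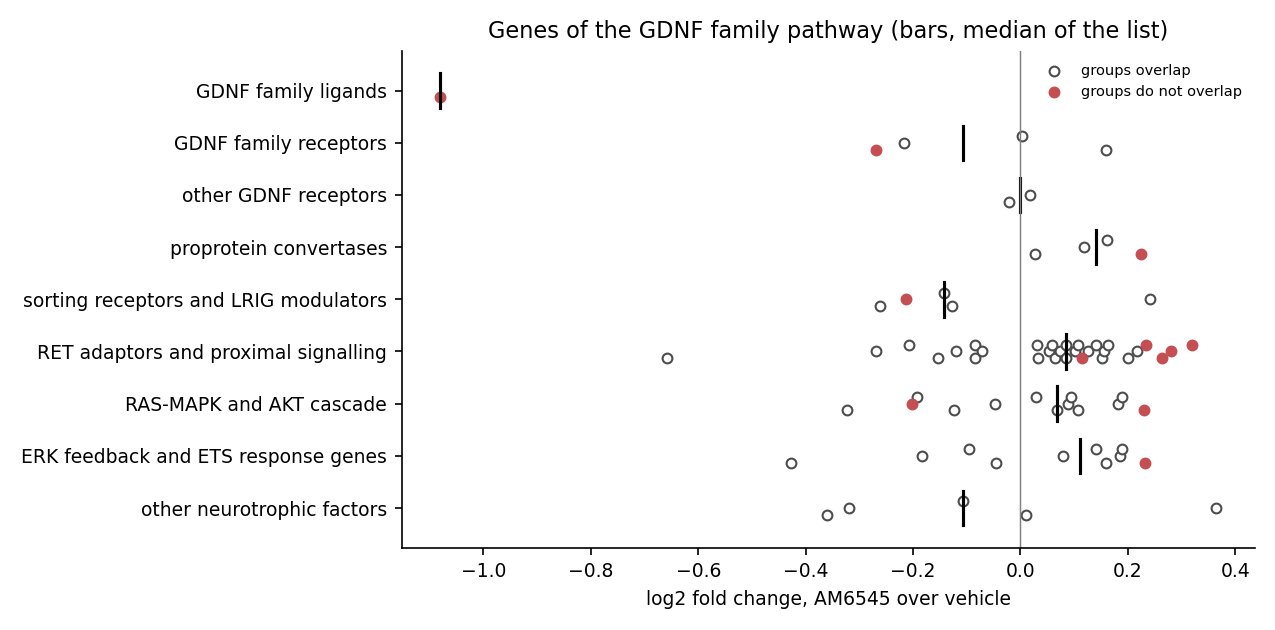
Log2 fold change of AM6545 over vehicle (horizontal axis) for each tested gene of 9 lists around the GDNF family. Red points are genes whose groups do not overlap, open points those that do, and black bars are list medians. Nrtn, which was chosen for its low level in AM6545, is at -1.08, and at -0.44 with the GC and length correction, which is not drawn here. The 30 RET adaptor genes have a median of 0.09.

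The genes whose profile over the 7 libraries was most like that of a member were found by Pearson's r of log2 CPM, given as a description. The 7 points include both treatments and share library depth and GC trend. For Nrtn the leading genes were Smo (r 0.973), the hedgehog pathway transducer, Ppcs (0.971), an enzyme of coenzyme A synthesis, Sema6c (0.971), a semaphorin, Rgl2 (0.970) and Rpl36a-ps1 (0.968). Their log2 fold changes were smaller than that of Nrtn except for Rpl36a-ps1, with -0.24 for Smo, -0.15 for Ppcs, -0.25 for Sema6c, -0.26 for Rgl2 and -1.45 for Rpl36a-ps1, a ribosomal protein pseudogene whose level is uncertain because it shares reads with its parent gene. In all, 58 genes reached r of at least 0.9 with Nrtn. For Gfra4, 627 genes did, led by Hbegf (0.994), Ppp1r1a (0.993) and Bax (0.990). The leading genes were Arsb (0.982), Hacd3 (0.981) and Tex11 (0.981) for Gfra1, Lrpap1 (0.987), Clcn6 (0.972) and C1qtnf7 (0.960) for Gfra2, and Doc2g (0.970), Phykpl (0.966) and Rilp (0.965) for Ret.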

How the data were processed

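The deposited values are estimated counts per gene and per transcript for 7 libraries, not scaled to a common total. Salmon 1.5.2 and the build mm10 are named in the submitters' processing notes, and RNA was made into libraries with the SMARTer Ultra Low Input kit, per the labels' protocols. The annotation release and strand setting are not given in the sources used here. Names, positions, lengths and sequences came from GENCODE M21 (GRCm38), in which 22148 of 22248 gene and 101527 of 102392 transcript identifiers matched, version ignored. For 22135 genes the deposited identifier had a higher version, so gene models may differ.

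Counts were rounded and tested with edgeR 4.0.16 (R 4.3.3; quasi-likelihood, TMM, filterByExpr, robust fit, no covariates), with Benjamini-Hochberg adjustment over all features. Each SE was taken as the log2 fold change over the root of its F statistic. TPM used annotated lengths. The code was tested on simulated counts.

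Members and lists were chosen with earlier results of these data known. The naming rule took the 3 smallest p-values of each list plus up to 3 genes without overlap, and the 5 (Nrtn) or 3 genes most like each member; some genes it names are not reported here. DESeq2 1.42.0, limma-voom (limma 3.58.1), other scalings and filters, a GC and length correction (lowess, span 0.3), a block and leaving out libraries were alternatives. The share of counts on retained-intron transcripts and the counts of genes by GC content were examined after the values were seen.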

Additional observations from a re-analysis of the deposited data

Results flagged for a closer look

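Dixon's gap criterion was applied to 39 sets of values within the AM6545 group, and 1 had a library far from the other 3, where chance gives about 1.95. In AM6545 replicate F, Spry2 reached 3.53 CPM. Replicates B, D and E of that group lay from 2.14 to 2.26 CPM, and the vehicle replicates B, D and E were at 4.27, 3.91 and 2.002 CPM.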

How the results depend on the processing

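The log2 fold change of Nrtn lay between -1.09 and -0.99 under 10 settings of scaling, tool, filter, robust fit, replicate block and transcript sums, and between -1.17 and -1.02 when a library was left out. Nrtn was chosen for its low level in every AM6545 library, so nothing is read from how narrow these ranges are. Its log2 fold change was -0.44 with the GC and length correction and -0.32 with that correction and the replicate block. Gfra1 and Gfra4 kept their sign under all 19 alternatives each, and neither passed. With the correction, however, Gfra4 was close to 0, at -0.01, and at -0.03 with correction and block. Gfra1 was at 0.09 and 0.12 under the same settings. Gfra2 turned to -0.00 with upper-quartile scaling, -0.01 with a mean of at least 50 counts, -0.05 with the correction and -0.01 with correction and block. Leaving out a library gave -0.07 to 0.08 for Gfra2 and -0.53 to 0.18 for Ret, which limma-voom put at -1.0 (adjusted p 0.0918). DESeq2 gave Ret no adjusted p, and Ret fell below the filter of 50 counts.

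The count of called genes was 247 with DESeq2 (4546 genes without an adjusted p), 118 with limma-voom, 2 with a mean of at least 50 counts, 2 without robust estimation, 4 at an adjusted p under 0.1 and 0 with the correction (987 unadjusted). Leaving out a library gave 0 to 944 genes, with 944 without vehicle replicate E, 3 without vehicle replicate D, 2 without AM6545 replicate B and 0 without vehicle replicate B (954 unadjusted) or AM6545 replicate E (1677 unadjusted). The cause was not tested. Deviations from the group mean correlated at -0.255, -0.13 and -0.18 between same-letter libraries and at -0.168 to 0.224 between libraries of unlike letters. With 3 same-letter pairs these values cannot decide whether a letter marks a shared preparation. The replicate block gave 1 gene (1199 unadjusted) and log2 fold changes of -1.03 for Nrtn, 0.20 for Gfra1, -0.30 for Gfra4 and -0.07 for Ret.

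Among transcripts, the replicate block turned the 1426-base coding transcript of Gfra4 to -0.13 and its 573-base one to -0.77. Leaving out a library gave -0.16 to 0.32 for the first, -0.43 to 0.42 for the second and -0.19 to 0.39 for the 4497-base Ret transcript. Alternatives for genes below the filter were not run, as Gdnf never exceeded 3 counts.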
